A study of Mus musculus with 6 samples.

Results

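The 32 genes described here encode the enzymes that build purine and pyrimidine nucleotides, convert them to the deoxynucleotides of DNA and supply the carbon units for both, in mouse hematopoietic stem cells (HSC). They were chosen by function, as rows of the deposited table whose symbol was on a list of these enzymes, and all 32 were found among the 24062 genes listed and passed the filter on low values. HSC are the bone marrow cells that renew the blood. RNA-seq libraries came from HSC of 2 genotypes with 3 libraries each, every library being a pool of 3 to 5 mice. Control mice were Nr4a1 fl/fl; Nr4a3-/-, so they lacked the nuclear receptor gene Nr4a3 and carried floxed alleles of its relative Nr4a1 without the construct that deletes them. CDKO mice were Nr4a1 fl/fl; Nr4a3-/-; Rosa26-ERt2, where the added construct is, as background, a tamoxifen-activated Cre recombinase driven from the widely active Rosa26 locus. Both genotypes received tamoxifen at 120 mg/kg in 4 daily injections, and cells were sorted on day 5. The absence of Nr4a3 and the tamoxifen were thus common to all 6 libraries, while Cre and the loss of Nr4a1 came together in CDKO pools and cannot be told apart. The ages of the mice and the surface markers of the sort are not given in the sources used here.

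Cells make purines by building the ring stepwise on phosphoribosyl pyrophosphate (PRPP), ending at inosine monophosphate (IMP), from which the adenine and guanine nucleotides branch. Pyrimidines are assembled as a free ring first and then attached to PRPP, on a path that leads to uridine monophosphate. Ribonucleotide reductase turns ribonucleotides into deoxynucleotides, and thymidylate is made from deoxyuridylate with a carbon unit carried by folate. Serine is the main donor of such units, through paired enzyme sets in the cytosol and in mitochondria. HSC are known as largely resting cells, which enter cycle when stimulated, and dividing cells need more of these products than resting ones.

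Levels are CPM, the reads of a gene scaled to a library total of 1000000, with 32863805 to 42772261 reads counted per library, and errors are SD over 3 pools unless named otherwise. A gene passed when limma, fitted to log2(CPM + 1) of all 13715 genes tested, gave a Benjamini-Hochberg adjusted p under 0.05, and log2 differences are CDKO minus control on that scale. Nr4a1 was 13.8 ± 1.18 CPM (control) against 9.13 ± 0.623 CPM (CDKO) (limma adjusted p = 0.00203), where the deleted part of the gene is not given in the sources used here. Nr4a3 had 0 reads in all 6 libraries, which allows at most 0.0701 to 0.0913 CPM by library. The 10 HSC markers summed to 4709 to 4963 CPM in controls and 4259.5 to 4464 CPM in CDKO, with Kit at 2046 ± 64.6 CPM (control) against 1631 ± 67.7 CPM (CDKO) and all 10 detected. Markers of other blood cells moved with the genotype: 16 erythroid markers summed to 581 to 659 CPM in controls and 83.3 to 116 CPM in CDKO, and 11 neutrophil markers to 819 to 1072 CPM in controls and 17.8 to 93.6 CPM in CDKO. Mast cell and basophil markers summed to 395 to 445 CPM in controls and 13.8 to 17.6 CPM in CDKO. Of those tested, 11 of 12 erythroid, 11 of 11 neutrophil and 7 of 7 mast cell and basophil markers fell. Among all genes tested 35.2% fell. Hba-a1, Hba-a2, Hbb-bt and Cma1 were at 0 throughout. Lymphocyte markers summed to 102 to 113 CPM in controls and 140.0 to 141 CPM in CDKO, with Cd3e and Ms4a1 at 0, and monocyte and macrophage markers to 47.2 to 52.6 CPM in controls and 61.8 to 66.6 CPM in CDKO. The part of these cells in the values below was not tested, and in pooled RNA fewer cells of a type and less RNA per cell cannot be told apart.

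Of the 32 enzyme genes 14 rose in CDKO HSC, 10 fell and 8 did not pass the test. The background was high, since 31.1% of all genes tested rose, 35.2% fell and 66.3% passed in either direction, against 43.75% and 31.25% of the enzymes for the first and second of these. Counted instead by the authors' deposited table, whose DESeq2 adjusted p was under 0.05 for 64.9% of the genes that had one, 16 enzymes were higher, 10 were lower and 6 were not called. The changes were modest in size. The median log2 difference of the enzymes was 0.12, against -0.024 for all genes, and the median size without sign was 0.27 against 0.34. Only 4 of the 32 enzymes, Mthfd2, Rrm2b, Cad and Adsl, differed by 1.5-fold or more between group means, 12.5% of them, while 31.9% of all genes tested both passed and differed by that much. All genes tested include many at lower levels than the enzymes, down to a mean of 10 reads. The sizes of change were not compared with those of genes at like levels. Summed over the 32 genes, the enzymes took 4135 to 4224 CPM in controls and 4430.3 to 4619 CPM in CDKO, so the sums did not overlap. The 3 CDKO values lay wholly above the 3 control values for 14 enzymes and wholly below for 10, against 33.5% and 37.2% of all genes tested (70.7% in all). Replicate pools of a group differed little, with a coefficient of variation of 0.973% to 11.8% among control pools and 1.88% to 11.8% among CDKO pools. The lowest count of any enzyme in any library was 648 reads, for Rrm2b, where counting alone gives 3.93%.

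**Figure D1:**
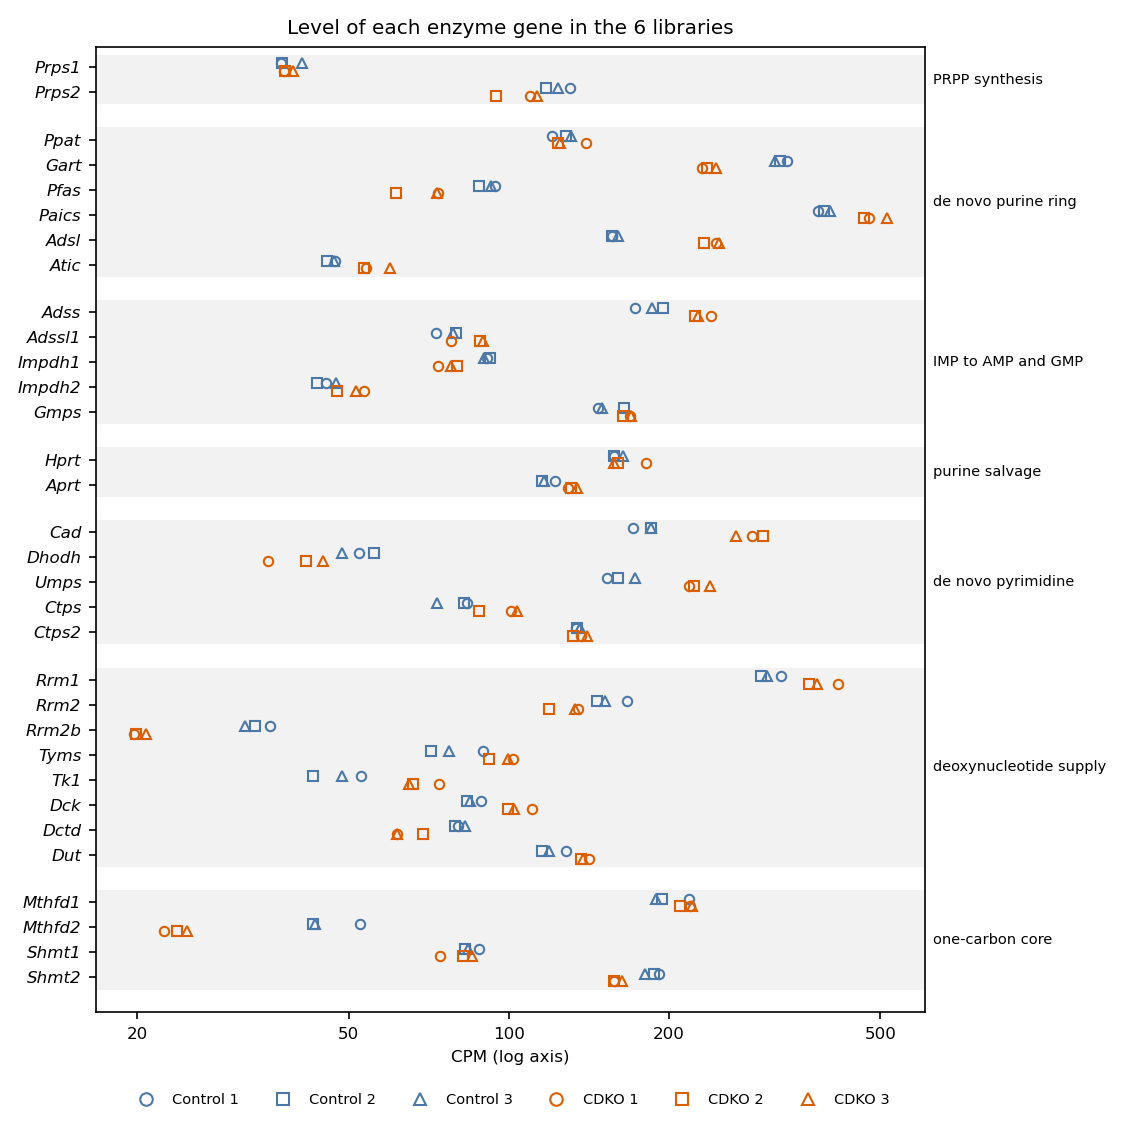
CPM of each of the 32 enzyme genes in every library (log axis), grouped by role, with control pools in blue, CDKO pools in orange and the symbol giving the pool number. For 24 of the 32 genes the blue and orange symbols do not overlap, as for Mthfd2, Rrm2b, Cad and Adsl.

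**Figure D2:**
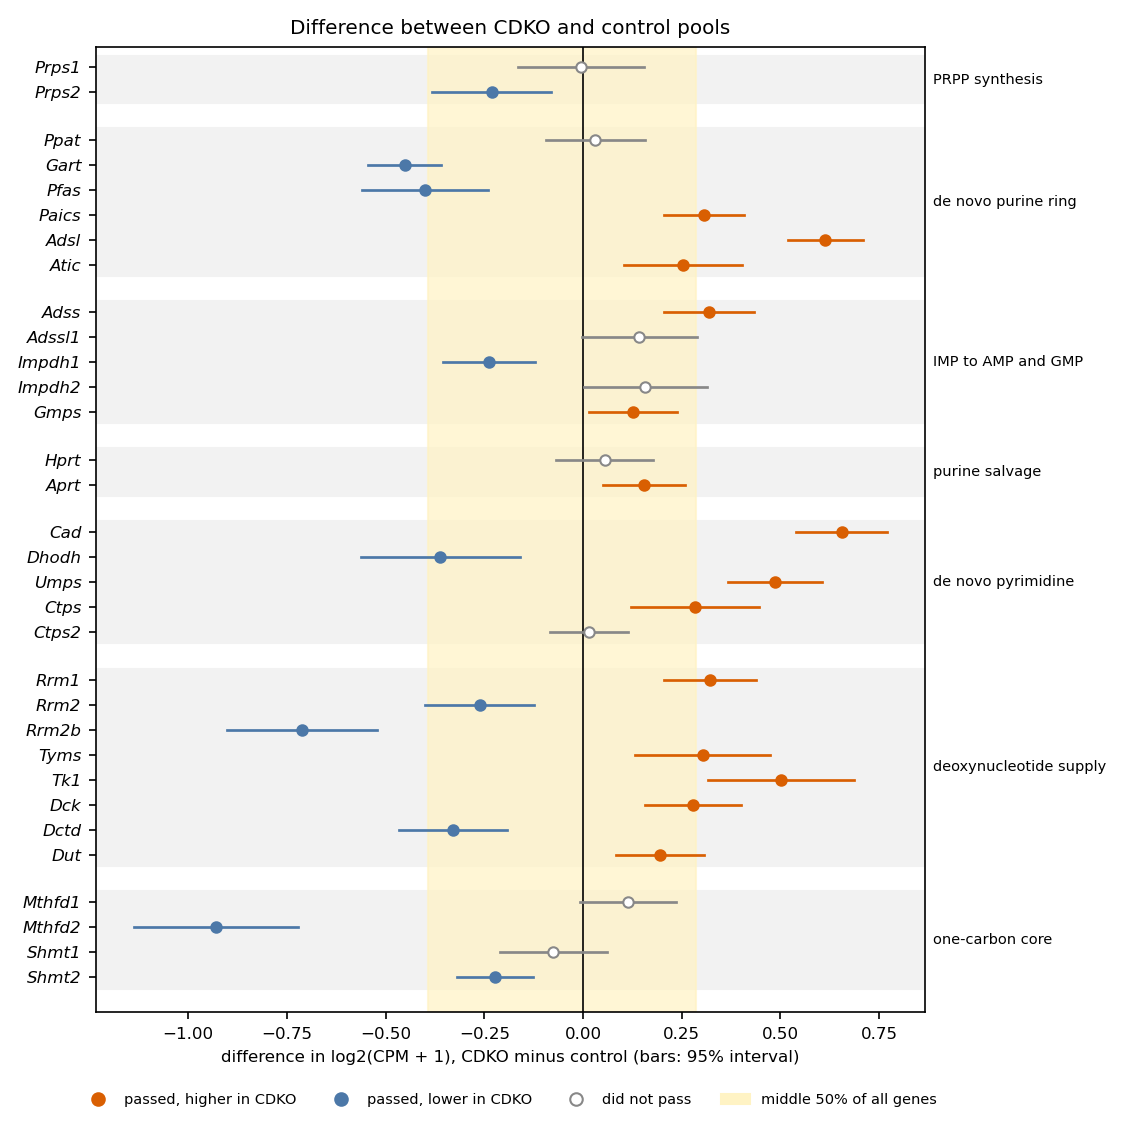
Difference in log2(CPM + 1), CDKO minus control, for each enzyme gene with its 95% interval from limma, the color giving the call and the shaded band the middle 50% of all genes tested. Enzymes lie on both sides of 0, from Mthfd2 at -0.93 to Cad at 0.66.

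The enzymes of the purine ring split by their place in the pathway. Gart and Pfas, which act early, fell, and Paics, Adsl and Atic, which act late, rose, while Ppat, which catalyzes the committed first step, did not pass. This division was noticed after the values were seen and has no test of its own. Gart, one protein with several activities on the early steps, was 333, 324 and 317 CPM in control pools 1 to 3 and 231, 236 and 246 CPM in CDKO pools 1 to 3 (chromosome 16, 91621395 to 91646972 on mm10, as are all positions here). All CDKO pools lay below all control pools, a level 1.37-fold lower (log2 difference -0.45, SE 0.042, limma adjusted p = 4.04e-06). Pfas, which adds the amide nitrogen, was 94.1, 88.1 and 92.7 CPM in control pools 1 to 3 and 73.5, 61.4 and 73.3 CPM in CDKO pools 1 to 3. It too fell without overlap (log2 difference -0.40, SE 0.073, limma adjusted p = 0.000495), and CDKO pool 2 was the lowest of the 6 libraries. Paics, with its carboxylase and SAICAR synthetase activities, was 382, 392 and 402 CPM in control pools 1 to 3 and 476, 465 and 515 CPM in CDKO pools 1 to 3 (chromosome 5, 76951302 to 76967509). It rose 1.24-fold (log2 difference 0.31, SE 0.046, limma adjusted p = 0.000131), with no overlap. Adsl, the lyase that acts in the ring pathway and again on the way to AMP, was 156, 157 and 161 CPM in control pools 1 to 3 and 245, 233 and 249 CPM in CDKO pools 1 to 3 (chromosome 15, 80948490 to 80970947). It was 1.53-fold higher in CDKO pools (log2 difference 0.61, SE 0.043, limma adjusted p = 6.78e-07), the largest rise among the purine enzymes of the 32. Atic, which closes the ring to give IMP, rose from 46.6 ± 0.913 to 55.8 ± 3.54 CPM (n = 3 per group, limma adjusted p = 0.00612).

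The ratio of Gart to Paics within a library, chosen after their values were seen, was 0.874, 0.828 and 0.789 in control pools and 0.485, 0.507 and 0.477 in CDKO pools. These ratios are of CPM, not of protein, and for this pair the libraries of a group had similar values. Ppat was 121, 128 and 131 CPM in control pools 1 to 3 and 139.5, 124 and 125 CPM in CDKO pools 1 to 3, so the groups overlapped (log2 difference 0.032, 95% interval -0.094 to 0.16, limma adjusted p = 0.642). Ppat and Paics lie head to head on chromosome 5 and their 5′ ends overlap, by 272 bases in GENCODE M21. RefSeq, whose ends differ slightly, places Ppat at 76913249 to 76951578. How reads in that overlap were counted is not given in the sources used here. Of the PRPP synthetases, which supply the ribose phosphate, Prps2 fell from 124 ± 6.27 to 106 ± 9.80 CPM (limma adjusted p = 0.0113). Prps1 was 38.6 ± 1.99 CPM (control) against 38.4 ± 0.787 CPM (CDKO) and missed the threshold (95% interval -0.16 to 0.16, limma adjusted p = 0.955). The Prps2 call was lost without control pool 1 (limma adjusted p = 0.0521).

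Past IMP, Adss rose on the adenine branch, while on the guanine branch Impdh1 fell and Gmps rose. Adss, the adenylosuccinate synthetase of most tissues, was 173, 195 and 186 CPM in control pools 1 to 3 and 240.3, 224 and 227 CPM in CDKO pools 1 to 3. The groups did not overlap, and Adss rose 1.25-fold (log2 difference 0.32, SE 0.052, limma adjusted p = 0.000240). Adsl, which takes the next step to AMP, rose as well, as described above. Adssl1, the muscle-type relative of Adss, was 77.1 ± 3.68 CPM (control) against 85.3 ± 6.37 CPM (CDKO) and missed the threshold (95% interval -0.0035 to 0.29, limma adjusted p = 0.0780). Impdh1 and Impdh2 are the isozymes of IMP dehydrogenase, the rate-limiting step to GMP. Impdh1 was 91.0, 92.3 and 90.0 CPM in control pools 1 to 3 and 73.6, 79.9 and 77.9 CPM in CDKO pools 1 to 3, a fall without overlap (log2 difference -0.24, SE 0.053, limma adjusted p = 0.00211). Impdh2 was 45.4, 43.6 and 47.4 CPM in control pools 1 to 3 and 53.4, 47.6 and 51.6 CPM in CDKO pools 1 to 3, also without overlap, but in the other direction and just short of the threshold (log2 difference 0.16, SE 0.071, limma adjusted p = 0.0671). Gmps, which aminates the product to GMP, was 154 ± 9.28 CPM (control) against 168 ± 3.16 CPM (CDKO) and passed narrowly (limma adjusted p = 0.0456) with overlapping groups. That call was lost in 7 of its 17 alternatives, among them the omission of each library except that of control pool 2, with limma adjusted p up to 0.153. The salvage enzymes return free bases to nucleotides. Aprt, which recycles adenine, rose from 118 ± 3.81 to 132 ± 2.60 CPM (limma adjusted p = 0.0126), and Hprt, which recycles hypoxanthine and guanine, was 160.0 ± 3.596 CPM (control) against 166 ± 12.9 CPM (CDKO) and missed the threshold (95% interval -0.069 to 0.18, limma adjusted p = 0.408).

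The pyrimidine pathway held the largest rise of the set and an opposite change at its mitochondrial step. Cad, a fused enzyme that carries out the opening reactions, was 171, 185 and 186 CPM in control pools 1 to 3 and 287, 301 and 268 CPM in CDKO pools 1 to 3 (chromosome 5, 31054620 to 31078479). Every CDKO pool was far above every control pool, a 1.58-fold rise (log2 difference 0.66, SE 0.053, limma adjusted p = 1.49e-06). Umps, which completes the pathway to uridine monophosphate, was 153, 160.3 and 173 CPM in control pools 1 to 3 and 219, 223 and 239 CPM in CDKO pools 1 to 3 (chromosome 16, 33954782 to 33967038). It rose 1.40-fold without overlap (log2 difference 0.49, SE 0.054, limma adjusted p = 1.48e-05). Dhodh, the step between them, is an inner mitochondrial membrane enzyme tied to the respiratory chain. It was 52.3, 55.8 and 48.6 CPM in control pools 1 to 3 and 35.3, 41.6 and 44.7 CPM in CDKO pools 1 to 3, and fell 1.29-fold without overlap (log2 difference -0.36, SE 0.092, limma adjusted p = 0.00455). The ratio of Dhodh to Cad in a library, also picked after their values were seen, was 0.289 ± 0.0240 in control and 0.143 ± 0.0221 in CDKO pools. CTP synthetase makes the cytidine nucleotides from uridine triphosphate. Its isozyme gene Ctps rose from 79.8 ± 5.52 to 97.4 ± 8.46 CPM (limma adjusted p = 0.00510), whereas Ctps2 was 135 ± 1.31 CPM (control) against 136 ± 3.99 CPM (CDKO) and missed the threshold (95% interval -0.083 to 0.11, limma adjusted p = 0.766). Over the 5 genes the summed level was 594 to 618 CPM in controls and 778 to 796 CPM in CDKO, 29.1% higher in the mean, the widest shift of the 7 role groups.

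All 8 genes of deoxynucleotide supply passed, 5 higher and 3 lower, where 66.3% of all genes tested passed, and the subunits of ribonucleotide reductase moved apart. Rrm1, the large catalytic subunit, was 326, 299 and 306 CPM in control pools 1 to 3 and 416, 367 and 381 CPM in CDKO pools 1 to 3 (chromosome 7, 102441695 to 102469771). It rose 1.25-fold (log2 difference 0.32, SE 0.053, limma adjusted p = 0.000255), with no overlap. Rrm2, the small subunit made mainly in S phase, was 167, 147 and 152 CPM in control pools 1 to 3 and 135, 119 and 134 CPM in CDKO pools 1 to 3 (chromosome 12, 24708254 to 24714146). It fell 1.20-fold (log2 difference -0.26, SE 0.063, limma adjusted p = 0.00329), again with no overlap. Rrm2b, the alternative small subunit, which p53 induces and which serves resting cells, was 35.6, 33.3 and 31.97 CPM in control pools 1 to 3 and 19.7, 19.9 and 20.8 CPM in CDKO pools 1 to 3 (chromosome 15, 37923952 to 37961119). It fell 1.67-fold (log2 difference -0.71, SE 0.087, limma adjusted p = 2.77e-05), and the coefficient of variation of its 3 CDKO values was 2.91%. Both small subunits were therefore lower while the large one was higher: Rrm2 over Rrm1 was 0.5003 ± 0.0120 in control and 0.333 ± 0.0151 in CDKO pools, a ratio chosen after the values were seen.

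Of the other 5 genes of deoxynucleotide supply 4 rose and Dctd fell. Tk1, the thymidine kinase of S phase, was 52.8, 42.8 and 48.6 CPM in control pools 1 to 3 and 74.0, 66.1 and 64.9 CPM in CDKO pools 1 to 3. The groups did not overlap (1.42-fold higher, log2 difference 0.50, SE 0.084, limma adjusted p = 0.000285). Tyms, thymidylate synthase, was 89.5, 71.5 and 77.1 CPM in control pools 1 to 3 and 102, 91.9 and 99.8 CPM in CDKO pools 1 to 3, with control pool 1 nearly as high as CDKO pool 2 and no overlap (log2 difference 0.30, SE 0.078, limma adjusted p = 0.00495). Dut, which removes dUTP and so provides the substrate of thymidylate synthase, rose from 121 ± 6.501 to 139 ± 2.64 CPM (limma adjusted p = 0.00537). Dck, the deoxycytidine kinase of salvage, rose from 85.6 ± 2.68 to 104 ± 5.64 CPM (limma adjusted p = 0.00100). Dctd, the deaminase that makes deoxyuridylate from deoxycytidylate, went the other way, from 80.7 ± 1.69 to 64.1 ± 4.38 CPM, a fall with no overlap (log2 difference -0.33, SE 0.062, limma adjusted p = 0.000638). Of 19 markers of S phase, 15 rose in the same pools and 2, Pole and Ccne1, fell. Among all genes tested 31.1% rose and 35.2% fell. The 19 markers summed to 3126 to 3331 CPM in controls and 3913 to 4110.4 CPM in CDKO. Rrm2 fell in pools where Mcm6, a helicase subunit, rose from 723 ± 36.0 to 990.0 ± 40.9 CPM and Pola1, the primase-linked polymerase, rose from 64.7 ± 2.66 to 107 ± 5.79 CPM. The part of cell cycle stage in these values was not tested.

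Promoter stretches of Rrm1 and Rrm2, which went opposite ways, of Gart and Mthfd2, which fell, and of Tyms, which holds an E-box, are shown so that their motif letters can be compared. They were cut from RefSeq promoter windows (GRCm38.p6, 250 bases before to 50 after a start site), which matched 29 of the 32 members in 35 windows, and lie upstream of the start site and outside annotated exons. Capitals mark CCAAT on either strand (ATTGG on the other), or in Tyms the E-box CACGTG.
Rrm1, chr7:102441589-102441669, + strand: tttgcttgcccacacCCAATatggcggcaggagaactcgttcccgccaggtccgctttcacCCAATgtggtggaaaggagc
Rrm2, chr12:24708189-24708223, + strand: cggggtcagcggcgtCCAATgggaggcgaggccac
Tyms, chr5:30073666-30073701, - strand: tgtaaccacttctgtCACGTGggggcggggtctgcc
Gart, chr16:91646986-91647020, - strand: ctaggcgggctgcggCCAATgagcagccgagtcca
Mthfd2, chr6:83317607-83317715, - strand: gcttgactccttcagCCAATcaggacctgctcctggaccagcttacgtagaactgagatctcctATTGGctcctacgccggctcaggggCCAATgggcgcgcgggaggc

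Rrm1, which rose, and Rrm2, which fell, both hold CCAAT, 2 copies in Rrm1 and 1 in Rrm2. The box was found in 13 of the 35 member windows, and in 37.4% of windows of tested genes and 37.4% of all 32851 windows. Windows of risen members held it in 3 of 15 cases, those of fallen members in 5 of 10 and those of members not called in 5 of 10. Among the 5 of fallen members, 2 are overlapping windows of Dctd that hold the same copy. These are counts of windows, not of genes. The fallen members Pfas, Dhodh and Rrm2b had no window, while Impdh1 and Dctd, also fallen, had more than 1. CACGTG was found in 4 member windows, those of Paics, Atic, Impdh2 and Tyms, against 9.79% of windows of tested genes. The E2F letters TTTCCCGC, TTTCGCGC, TTTGCCGC or TTTGGCGC, searched on both strands like the rest, were found in 2 member windows, of Ppat and Prps2, against 3.79%. The amino acid response letters TGATGNAA were found in 1, of Prps1, against 2.30%. None of the 4 sets of letters contains another. A match describes the letters only.

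In folate-dependent carbon metabolism the mitochondrial members, Mthfd2 and Shmt2, fell and their cytosolic counterparts, Mthfd1 and Shmt1, did not pass. Mthfd1l and Mtfmt, mitochondrial genes outside the members, rose, as given below. Mthfd2, the mitochondrial dehydrogenase and cyclohydrolase that is usually high in dividing cells, was 52.5, 42.9 and 43.3 CPM in control pools 1 to 3 and 22.5, 23.8 and 24.9 CPM in CDKO pools 1 to 3 (chromosome 6, 83305704 to 83326011). It was 1.95-fold lower in CDKO pools (log2 difference -0.93, SE 0.095, limma adjusted p = 7.57e-06), the largest difference of the 32 genes, and the lowest control pool stood well above the highest CDKO pool. Shmt2, which splits serine in mitochondria, was 192, 187 and 180.2 CPM in control pools 1 to 3 and 158, 158 and 163 CPM in CDKO pools 1 to 3 (chromosome 10, 127517123 to 127522444). It fell 1.17-fold without overlap (log2 difference -0.22, SE 0.044, limma adjusted p = 0.000882). Shmt1, the cytosolic form, was 84.8 ± 2.79 CPM (control) against 80.6 ± 5.53 CPM (CDKO) (95% interval -0.21 to 0.06, limma adjusted p = 0.301). Mthfd1, the cytosolic enzyme with several folate activities, was 201 ± 15.7 CPM (control) against 217 ± 5.74 CPM (CDKO) (95% interval -0.0079 to 0.24, limma adjusted p = 0.0901). It passed without control pool 1, which at 219 CPM stood within the CDKO range (log2 difference 0.18, limma adjusted p = 0.00921).

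Balance between enzymes of the same step was compared as a ratio of CPM within each library, which does not depend on library scaling. For all 7 pairs the 3 CDKO ratios lay on a single side of the 3 control ratios. Among single genes tested 70.7% had groups without overlap, and no such share was computed for ratios of gene pairs. The gap was small for Shmt1 over Shmt2, at most 0.465 in control pools and at least 0.472 in CDKO pools. The exact permutation test (two-sided) gave p = 0.1 for every pair, raw and Benjamini-Hochberg adjusted over the 7, and 0.1 is the smallest p that 3 pools against 3 can give, so none could pass. Mthfd1 over Mthfd2 shifted most, with 4.16, 4.53 and 4.37 in control and 9.77, 8.85 and 8.88 in CDKO pools, a 2.10-fold change toward the cytosolic enzyme. Rrm2 over Rrm2b was 4.69, 4.40 and 4.75 in control and 6.84, 6 and 6.42 in CDKO pools, 1.39-fold higher, since Rrm2b fell further than Rrm2. Impdh1 over Impdh2 moved from 2.00, 2.12 and 1.90 to 1.38, 1.68 and 1.51, toward Impdh2, the form known to rise in dividing cells. The other 4 pairs, Ctps with Ctps2, Adss with Adssl1, Prps1 with Prps2 and Shmt1 with Shmt2, differed by 0.15 to 0.27 in mean log2 ratio.

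**Figure D3:**
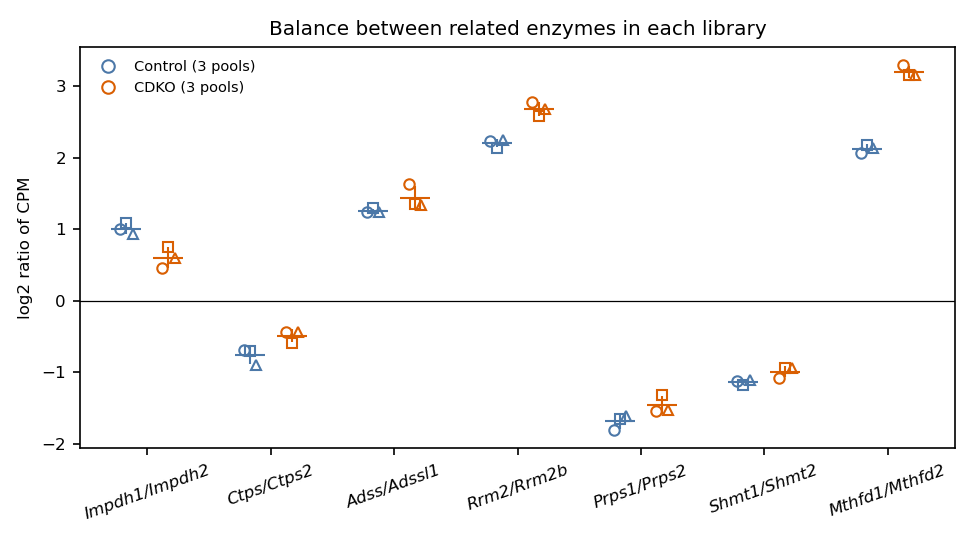
log2 ratio of CPM between related enzymes in each library, with control pools in blue and CDKO pools in orange, the symbol giving the pool number as in the plot of levels, and the horizontal mark and bar the mean and SD of 3 pools. The widest gap is that of Mthfd1 over Mthfd2, from 2.12 to 3.20.

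Levels of different enzymes were compared per kb of exon (CPM divided by the summed exon length in the GENCODE M21 basic set, which may not be the annotation the authors counted with). Paics was the highest, at 158 CPM per kb in control and 195 CPM per kb in CDKO pools, followed in both groups by the salvage enzymes Hprt (124 and 129 CPM per kb) and Aprt (108 and 120.0 CPM per kb). Gart went from rank 4 of 32 in control pools to rank 11 in CDKO pools. Cad went from rank 25 to rank 15, at 24.9 and 39.3 CPM per kb. Mthfd2 went from rank 27 to rank 30, and Rrm2b was the lowest in both groups, at 7.37 and 4.42 CPM per kb. The enzymes thus spanned a wide range of levels, and the highest 3 and the lowest gene were the same in both groups.

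**Figure D4:**
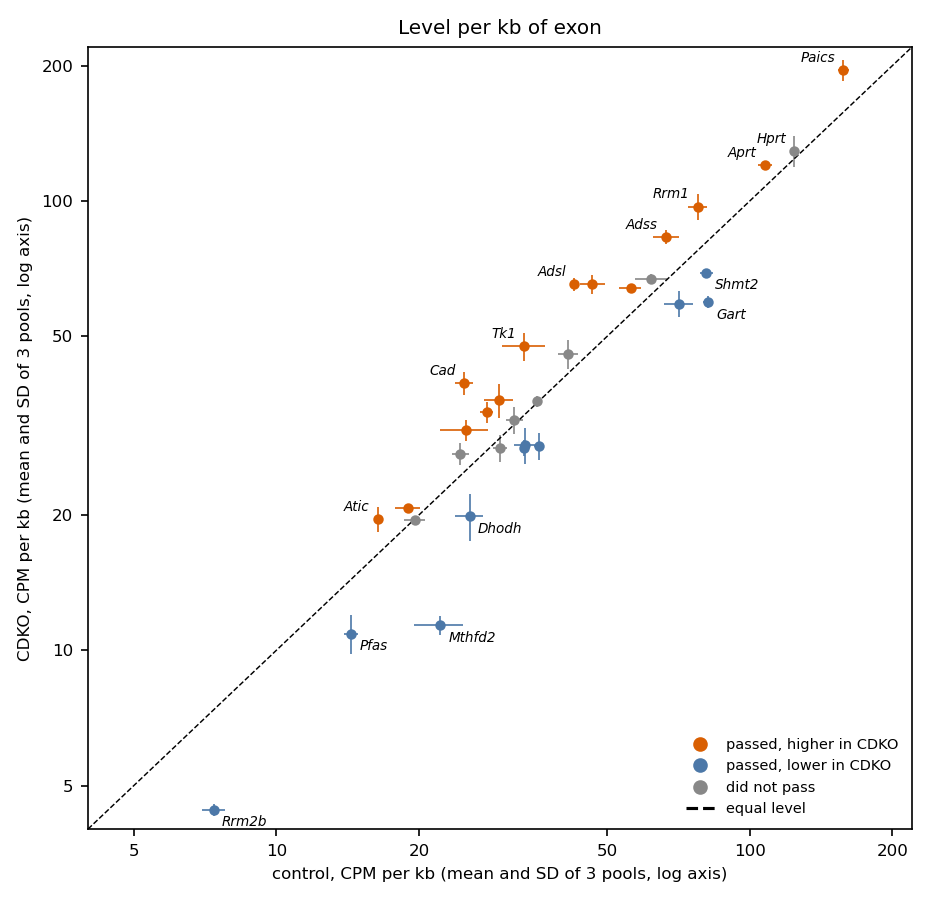
Level per kb of exon of each enzyme gene in control (horizontal) and CDKO pools (vertical), both on log axes, as mean and SD of 3 pools, with the dashed line marking equal levels. Mthfd2 and Rrm2b lie farthest below the line, at 11.4 and 4.42 CPM per kb in CDKO pools, and Cad and Adsl lie farthest above it.

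Beyond the 32 members, 90 further genes were listed, made up of genes of nucleotide and folate metabolism and 8 regulators of the enzymes, described below. Of these 90, 81 were tested, 29 rose and 23 fell, where 31.1% of all genes tested rose and 35.2% fell. The counts of the single lists that follow stand against the same shares. Among other folate and carbon unit genes 3 rose, 6 fell and 8 did not pass. The mitochondrial genes Mthfd1l, from 82.0 ± 1.15 to 94.6 ± 1.34 CPM, and Mtfmt, from 25.8 ± 2.38 to 37.2 ± 2.34 CPM, were among those that rose. The mitochondrial genes of this pathway therefore did not all fall. Slc46a1, a folate transporter, fell from 17.7, 16.3 and 16.3 CPM to 0.0913, 0.868 and 1.66 CPM (limma adjusted p = 1.20e-06), and Ggh, a folate hydrolase of lysosomes, fell from 41.8 ± 2.65 to 29.1 ± 1.91 CPM (limma adjusted p = 0.000241). In serine supply Psat1 rose from 106 ± 3.80 to 126 ± 5.05 CPM (limma adjusted p = 0.00156) and Phgdh, the first enzyme of serine synthesis, from 120.5 ± 3.36 to 132 ± 3.83 CPM (limma adjusted p = 0.0347). The serine transporter gene Slc1a4 fell from 3.20 ± 0.183 to 1.504 ± 0.494 CPM, and Psph and Slc1a5 did not pass. In the pentose phosphate pathway, the source of ribose phosphate, Pgls and Taldo1 rose, G6pdx, its entry enzyme, fell from 83.0 ± 3.45 to 67.0 ± 5.53 CPM (limma adjusted p = 0.00195), while 4 genes did not pass. Tkt, the most abundant of them, was 620.3 ± 30.3 CPM (control) against 607 ± 7.47 CPM (CDKO).

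Of the 19 nucleotide kinases and further salvage enzymes 10 rose and 4 fell. Cmpk2, a mitochondrial pyrimidine nucleotide kinase that is also a known interferon target, rose from 85.9 ± 5.72 to 196 ± 18.2 CPM (limma adjusted p = 2.94e-07). Guk1, the guanylate kinase, rose from 51.2 ± 0.452 to 80.5 ± 4.22 CPM (limma adjusted p = 4.16e-06). Ak4, an adenylate kinase of mitochondria, fell from 34.1 ± 4.30 to 16.2 ± 2.47 CPM (limma adjusted p = 2.79e-05), while Tk2, the mitochondrial thymidine kinase, fell from 74.0 ± 4.81 to 50.8 ± 4.70 CPM (limma adjusted p = 0.000101). Dtymk and Upp1 were the other 2 that fell. Thymidine kinases of the cytosol and of mitochondria hence went opposite ways, Tk1 up and Tk2 down, though the difference between them was not tested. Nme1 and Nme2, which rose as well, are near copies of each other, so reads may be split between them. Of the 20 tested genes of breakdown and pool control 8 rose and 6 fell. Ada, which deaminates adenosine, rose from 21.8 ± 1.21 to 41.0 ± 1.17 CPM (limma adjusted p = 4.08e-06), and Dctpp1, which clears excess dCTP, rose from 52.1 ± 3.04 to 81.0 ± 2.34 CPM (limma adjusted p = 6.50e-06). Xdh, which makes uric acid, fell from 20.1 ± 1.71 to 5.53 ± 1.31 CPM (limma adjusted p = 3.77e-06), while Gmpr, which returns GMP to IMP, fell from 94.7 ± 4.02 to 49.5 ± 3.72 CPM (limma adjusted p = 8.46e-07). Of the nucleoside transporters tested, Slc29a2 rose from 18.0 ± 0.633 to 27.9 ± 0.766 CPM (limma adjusted p = 0.000117) and Slc28a2 fell from 43.3 ± 3.21 to 29.0 ± 2.90 CPM (limma adjusted p = 0.000244). Slc28a1 was 1.31 ± 0.506 CPM in control pools with no read in CDKO pools.

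Regulators known to act on these enzymes also went both ways, 3 higher, 3 lower and 2 not called. Myc, a known activator of many purine and pyrimidine genes, fell from 505 ± 31.7 to 382 ± 7.66 CPM (limma adjusted p = 2.54e-05), while its relative Mycn was 344 ± 25.6 CPM (control) against 359 ± 12.0 CPM (CDKO) and missed the threshold (limma adjusted p = 0.310). Their partner gene Max rose from 65.1 ± 3.75 to 97.2 ± 4.03 CPM (limma adjusted p = 9.88e-06). Among E2F factors, which drive S phase genes, E2f2 rose from 13.7 ± 0.793 to 26.7 ± 3.50 CPM (limma adjusted p = 4.10e-05) and E2f3 from 53.1 ± 3.83 to 64.7 ± 4.72 CPM (limma adjusted p = 0.00618), and E2f1 was 88.4 ± 6.61 CPM (control) against 85.9 ± 6.996 CPM (CDKO) (limma adjusted p = 0.636). Atf4, an activator of serine and mitochondrial folate genes, fell from 77.7 ± 2.23 to 69.4 ± 2.46 CPM (limma adjusted p = 0.0238), while Mtor, a growth kinase, fell from 89.8 ± 2.65 to 63.4 ± 6.76 CPM (limma adjusted p = 0.000103). These are transcript levels, and no activity of the proteins was measured.

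In each group a pool was often the highest. Control pool 1 was the highest control pool for 7 of the 8 deoxynucleotide genes and all 4 folate genes, and for 17 of the 32 enzymes. CDKO pool 3 was the highest CDKO pool for 18 of the 32 enzymes and all 4 folate genes, and CDKO pool 1 for 6 of the 8 deoxynucleotide genes. In control pool 1 the summed level of deoxynucleotide genes was 968 CPM, against 872 and 902 CPM in control pools 2 and 3 and 969.7 to 1061 CPM in CDKO pools. The 19 S phase markers summed to 3331 CPM in control pool 1, 3126 CPM in pool 2 and 3303 CPM in pool 3. Neutrophil markers summed to 1072 CPM in control pool 1, against 819 and 826 CPM in the other two, and to 93.6 CPM in CDKO pool 3, against 24.6 and 17.8 CPM in CDKO pools 1 and 2. Without CDKO pool 3, 13 enzymes rose and 10 fell, against 29.1% and 34.3% of all genes tested. Without control pool 1, 14 enzymes rose and 9 fell, in place of 14 and 10, against 28.2% and 33.3% of all genes tested. No batch is named in the labels, so a difference in preparation shared by a group's pools cannot be told apart from genotype.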

How the data were processed

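Per the labels' protocols, sorted HSC gave RNA that a SMARTer low-input kit amplified, and Nextera XT made the libraries. TopHat2, HTSeq, DESeq2 and the build mm10 are named per the submitters' processing notes, with no versions. The deposited library values are CPM, each column summing to 1000000, and gave whole reads for 99.9989% of values above 0 (tolerance 0.01 read). The deposited baseMean is a signal scaled by size factors and the stat column a score, and neither was used. The authors' log2 fold change (control over CDKO, sign turned) and adjusted p-value were used only for counts of calls set beside those made here.

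Genes with a mean of at least 10 reads (0.255 CPM) entered a limma fit (version 3.58.1, R 4.3.3) of log2(CPM + 1), eBayes with trend, two-sided, adjusted over all 13715 genes, of which only members and fixed lists are printed. The 12 genes listed under a date were left out. A listed gene that is no member is not reported here. Intervals of differences are 95% and come from limma. Ratios of enzyme pairs were tested with an exact permutation test. The 32 members and all lists were chosen with earlier results of these data known. Genes named outside the members are the 4 of smallest p in a list, those against its majority, and the regulators in full, with others added after their values were seen. Replicate numbers did not pair libraries by the rule used (correlations of same-numbered deviations over 0.1 in every pair), so the fit has no block. Labels do not say that pools of a group were prepared separately, so p-values measure the spread between these pools. The fits were tested on simulated data, where limma and edgeR recovered fewer of the changed genes than first asked. Recovery was then asked only of well-counted genes, which all 3 tools met, and a bound on false calls only of limma and edgeR, which met it, while DESeq2 exceeded it. Alternatives were the replicate block, each library left out, 3 other filters, pseudocounts of 0.5 and 5, TMM and quantile scaling, recovered reads with edgeR 4.0.16 or DESeq2 1.42.0, and a loess correction for GC content and transcript length (99.2% of genes tested had both). Positions are RefSeq's on GRCm38.p6, the assembly behind mm10. The counting intervals and limits cover counting error only.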

Additional observations from a re-analysis of the deposited data

How the results depend on the processing

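Of the 24 enzymes that passed, 22 kept their call and direction under all 17 alternatives, the exceptions being Gmps, not called in 7, and Prps2, not called without control pool 1. Across alternatives 13 to 17 enzymes rose and 9 to 10 fell, and leaving out 1 library at a time 13 to 14 rose and 9 to 10 fell, while 53.3% to 69.3% of all genes were called in these alternatives. The highest count, 17, came from DESeq2. Of the 8 that did not pass, Impdh2 passed in 5 alternatives, Adssl1 in 4 and Mthfd1 in 2. Impdh2 and Adssl1 passed with TMM scaling (limma adjusted p = 0.0483 and 0.0484). Among the 32 enzymes the sign turned for 4, none of which had passed. Prps1 was 0.0092 with TMM, 0.022 with quantile scaling, 0.0084 with edgeR and 0.0085 with DESeq2, and -0.027 to 0.036 leaving out libraries. Ctps2 was -0.045 after the GC and length correction and -0.0043 to 0.038 leaving out libraries, where Ppat ran from -0.023 to 0.062 and Hprt from -0.0078 to 0.093. The cause was not tested. With the 8 regulators counted in, further pathway genes that rose numbered 26 to 32 and those that fell 19 to 25. Isozyme ratios kept their direction in every alternative, Mthfd1 over Mthfd2 at 1.03 to 1.10 in log2. With the replicate block 15 enzymes rose and 10 fell, Adssl1 being added (limma adjusted p = 0.0415). Same-numbered libraries had correlations of deviations of 0.0504, 0.0489 and -0.0120, and others -0.0644 to 0.0251. No scaling moved the median of all genes by more than 0.1. At 648 reads or more per enzyme and library counting error was at most 3.93%, against a median coefficient of variation between pools of 4.45% in controls and 5.41% in CDKO.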

Other observations

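Some members have a neighbour that starts close by on the other strand, and its level need not follow the member's. Gart fell while Son, a splicing factor gene whose start lies 554 bases from that of Gart in GENCODE M21, was 405 CPM (control) against 442 CPM (CDKO) and rose (log2 difference 0.13, limma adjusted p = 0.0311). Tk1 rose while Afmid, an enzyme gene of tryptophan breakdown, fell from 6.74 to 3.41 CPM (limma adjusted p = 0.000294). The annotated start regions of Tk1 and Afmid overlap by 169 bases. Mthfd2 fell while Mob1a, whose start lies 108 bases from the outermost annotated start of Mthfd2, was 81.3 CPM (control) against 81.2 CPM (CDKO) and missed the threshold (log2 difference -0.0047, limma adjusted p = 0.951). Together with Ppat and Paics, described above, these are all 4 head-to-head pairs of protein-coding genes found with starts within 1000 bases. In each the partners differed in call or direction. Among all genes tested 31.1% rose and 35.2% fell, and the share of gene pairs with differing partners was not computed. This comparison was chosen after the values were seen, and how reads in overlapping stretches were counted is not given in the sources used here. The promoter stretch of Mthfd2 printed above belongs to a different, inner start site, at 83317604, while the gene's span runs to 83326011.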
